A study of Mus musculus with 4 samples.

Results

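Coronary-like vascular endothelial cells were examined in single-cell RNA sequencing of mouse embryonic heart ventricles. They were chosen from their own counts of unique molecular identifiers (UMIs, one per captured transcript molecule). A barcode was kept when it held at least 1000 genes, under 10% mitochondrial UMIs and under 1% UMIs of 8 sarcomere genes of cardiomyocytes. It passed the endothelial gate with at least 5 UMIs over Cdh5, Pecam1, Emcn, Cd93, Plvap and Kdr, at least 3 of these 6 genes being detected. It counted as vascular-like when Fabp4 had at least 2 UMIs and more than Npr3, Wnt4 and Wnt9b together at most 1, and the G2/M genes Ube2c, Ccnb1 and Cdc20 together at most 2. The rule gave 269 cells out of 3927 endothelial-gated and 15568 kept barcodes, from 61172 barcodes deposited.

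The samples were 4 libraries of 2 genotypes, with 2 libraries each. The KO libraries came from Gata4fl/fl;Rosa26mTmG/+;Cdh5(Pac)-CreER+ embryos and the het libraries from Gata4fl/+;Rosa26mTmG/+;Cdh5(Pac)-CreER+ embryos. All embryos carried the tamoxifen-inducible Cre, which the Cdh5 promoter drives throughout endothelium, and a reporter that replaces red membrane fluorescence with green after Cre acts. All were given tamoxifen at E9.5 (embryonic day) and collected at E12.5, so het cells, too, can lose 1 Gata4 allele and there was no group without Cre. Nothing in the labels tells if 1 embryo or several went into a library, or what a replicate number marks, and the p-values below measure only the spread between these libraries.

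Coronary vessels arise from endothelium that spreads over and into the ventricular wall, largely from the sinus venosus and in part from the endocardium, the endothelial lining of the heart chambers. The forming plexus is known for VEGF-driven sprouting with apelin-expressing tip cells, and it later takes on arterial and venous character, with Notch signalling on the arterial side. Its capillaries take up fatty acids for the heart muscle, and Fabp4, an intracellular fatty acid carrier, is a familiar marker of them. Gata4, a zinc-finger transcription factor, is best known in the heart for its roles in cardiomyocytes and endocardium.

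The vascular-like cells numbered 75 in KO 1, 41 in KO 2, 99 in het 1 and 54 in het 2. Their UMIs summed to 1211597 and 1051006 in KO 1 and KO 2, and to 972045 and 1055285 in het 1 and het 2. Median UMIs per cell were 11529 and 19256 in the KO libraries, against 6447 and 20045.5 in the het libraries. Just inside the threshold lay 41 cells with 2 Fabp4 UMIs and 30 with 3, and just outside it 64 gated cells with 1 Fabp4 UMI and no Npr3, while 56 more had enough Fabp4 but at least as much Npr3. A further 283 barcodes met every condition except the G2/M limit (71, 39, 84 and 89 in KO 1, KO 2, het 1 and het 2), so the most actively dividing vascular cells lie outside the set.

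Library het 1 stood apart from the other 3. The median Fabp4 count of its vascular-like cells was 4 UMIs, the lowest of the 4 libraries, against 16 and 18 in KO 1 and KO 2, and 30 of the 41 cells at 2 Fabp4 UMIs were in it. Sarcomere genes took at least 0.5% of UMIs in 52 of its 99 cells, against 6 cells in KO 1 and 0 in KO 2 and het 2. At least 2 UMIs of macrophage or megakaryocyte markers were found in 20 of its cells, against 7, 4 and 2 in KO 1, KO 2 and het 2. The doublet caller marked none of the 269 cells, although its automatic threshold could be used only in het 2. Between pairs of libraries 27 kept barcodes were shared, none of them of vascular-like cells. List medians below are therefore also given without het 1, or without another library, where leaving it out moves them by over 1.5 times.

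The name was checked on markers. Fabp4 and Kdr were part of the rule and are a description only. Of the remaining 3, Cldn5 encodes a tight-junction protein of endothelium, Kcne3 a potassium channel subunit and Igfbp3 a binding protein of insulin-like growth factors. All 3 had a UMI in 88 of the 269 cells, 2 of them in 87 cells, 1 in 60 cells and none in 34 cells. The cells with none made up 8.0% and 2.44% in KO 1 and KO 2, against 23.2% and 7.41% in het 1 and het 2. Among cells with 2 or 3 Fabp4 UMIs 28.2% had none of the 3, against 7.07% of those with 4 or more. Fewer of the 3 markers were thus seen among the cells nearest the threshold, 46 of whose 71 were in het 1. This tally was not matched for depth, and het 1 had the lowest median UMIs per cell (6447).

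Lymphatic endothelium was checked in the same way. Ccl21a, a lymphatic chemokine gene, had no UMI in any library, and Lyve1, a hyaluronan receptor of lymphatic and some other endothelium, had 18 and 2 UMIs in KO 1 and KO 2, against 1 and 6 in het 1 and het 2. Prox1, the lymphatic master regulator, stood at 9.51 and 2.94 counts per 1e6 UMIs (CPM) in the KO libraries and at 13.6 and 4.72 in the het libraries. The 8 lymphatic markers together summed to 234 and 162 CPM in vascular-like cells of KO 1 and KO 2, against 154 and 162 CPM in those of het 1 and het 2, most of it from Flt4 and Itga9, which are not limited to lymphatic vessels. In endocardial-like cells the sums were 205 and 117, against 185 and 147 CPM.

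Endocardial-like cells, chosen by the mirrored rule (at least 2 Npr3 UMIs and more than Fabp4), numbered 1380 and served as the comparison within each library. Since the rule separated the cells by Fabp4 and Npr3, and genes correlated with these follow, the levels that differed are a description with no test. Genes were ranked by their smallest ratio over the 4 libraries among those with at least 50 CPM in vascular-like cells of every library. Apln, the ligand apelin, came first and stood at 94.0 and 81.6 CPM in vascular-like cells of KO 1 and KO 2 and at 96.1 and 142 CPM in those of het 1 and het 2, and at 1.07 to 1.40 CPM in endocardial-like cells. That is 50.7-fold to 87.6-fold higher in vascular-like cells over the 4 libraries. The 11 genes next in this ranking were Tmem255a, Sparcl1, Col15a1, Kcne3, Pdgfb, Gpihbp1, Cldn5, Adm, Pcdh17, Mgll and Igfbp3.

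Several of these genes are known from capillary endothelium. Sparcl1 and Col15a1, which encode a matricellular protein and a basement membrane collagen, were 22.1-fold to 39.8-fold and 17.5-fold to 21.7-fold higher in vascular-like cells. Pdgfb, the growth factor by which sprouting endothelium recruits pericytes, was 15.3-fold to 31.8-fold higher. Gpihbp1, the capillary anchor of lipoprotein lipase, was 12.9-fold to 26.2-fold higher. Kcne3 was 16.2-fold to 37.6-fold, Cldn5 12.2-fold to 21.2-fold and Igfbp3 8.58-fold to 12.9-fold higher. Esm1, secreted by VEGF-stimulated tip cells, and Meox2, a transcription factor of heart capillary endothelium that acts on fatty acid transport, were named from the lists and had higher smallest ratios than Apln, but fell below that minimum in at least 1 library. Esm1 stood at 159, 26.2, 122 and 122 CPM in vascular-like cells of KO 1, KO 2, het 1 and het 2 and at no more than 1.82 CPM in endocardial-like cells. Meox2 stood at 43.2, 48.1, 36.1 and 60.7 CPM in vascular-like cells, with at most 0.14 CPM in endocardial-like cells.

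**Figure D1:**
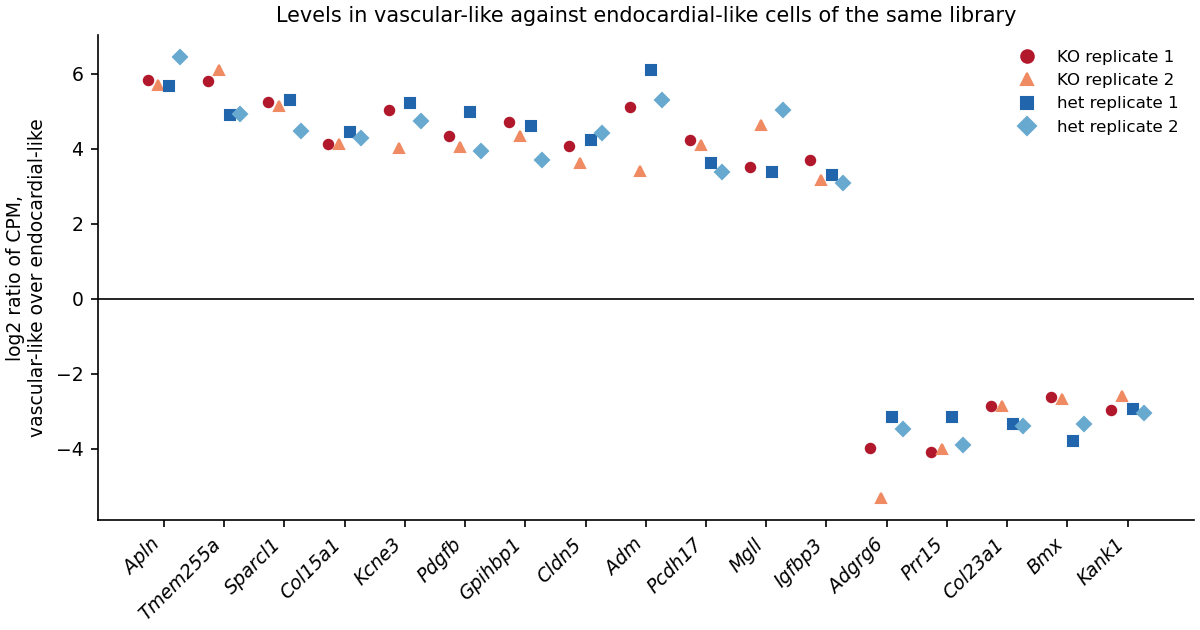
The log2 ratio of CPM in vascular-like over endocardial-like cells of the same library for the 12 genes with the highest and 5 of those with the lowest ratio among genes with at least 50 CPM in the higher class of every library, one point per library, KO left of het; 0.5 CPM was added to both levels. All 4 points of each gene lie on one side of 0, from 3.10 upwards for the 12 and from −2.58 downwards for the 5.

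Genes furthest on the endocardial side, with the same minimum in endocardial-like cells, included Adgrg6, Prr15, Col23a1, Bmx and Kank1. Adgrg6, an adhesion receptor coupled to G proteins, was 8.91-fold to 39.8-fold lower in vascular-like cells. Bmx, a tyrosine kinase of endocardium and arterial endothelium, was 6.17-fold to 13.9-fold lower. Vwf, which encodes von Willebrand factor, was 3.92-fold to 10.5-fold lower in vascular-like cells. Gata4 was also lower in them, by 2.16-fold to 3.21-fold.

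Arterial, venous and tip cell genes were each detected in only part of the vascular-like cells. Thinning each cell to 3000 UMIs left 245 of the 269 cells (7 and 1 cells fell below in KO 1 and KO 2, 13 and 3 in het 1 and het 2). Each gene paired below was then seen in a minority of these 245 cells. By library, however, Efnb2 was seen in a mean of 51.2% of KO cells, against 34.1% of het cells. Aplnr, the apelin receptor and a gene of venous and sinus venosus endothelium, and Gja4, the arterial connexin 37, had a UMI together in 5 cells, Aplnr alone in 28, Gja4 alone in 24 and neither in 188. Nr2f2, the venous transcription factor COUP-TFII, and Efnb2, the arterial ephrin-B2, were seen together in 28 cells, Nr2f2 alone in 45, Efnb2 alone in 74 and neither in 98. Apln and Esm1, both of tip cells, were seen together in 9 cells, Apln alone in 27 and Esm1 alone in 25. Without thinning, Nr2f2 had a UMI in a mean of 57.9% of KO and 51.3% of het cells, and Efnb2 in 83.2% and 62.6%. A cell without a UMI of a gene after thinning can thus still express it. Whether these pairs coincided more or less often than by chance was not tested. The 22 genes of the arterial list summed to a median of 7 UMIs per thinned cell in both KO libraries, against 4.5 and 5 in het 1 and het 2, and the 22 genes of the sprouting list to 28 and 15.5, against 10 and 13.

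The share of vascular-like cells was not shown to differ between genotypes. They made up 1.61% and 1.59% of kept barcodes in KO 1 and KO 2, against 2.52% and 1.22% in het 1 and het 2. The 95% Wilson intervals, which cover counting error only, ran from 1.29 to 2.01% in KO 1, 1.18 to 2.15% in KO 2, 2.08 to 3.06% in het 1 and 0.939 to 1.59% in het 2. The KO mean of 1.60% ± 0.0129 lay 0.272 percentage points below the het mean of 1.87% ± 0.918 (SD, n = 2 each; two-sided exact permutation p = 1, where the smallest possible p is 0.333). Without het 1 the KO mean was 0.377 points above het 2, and with 4 Fabp4 UMIs required it was 0.0865 points above the het mean.

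Most vascular-like cells carried the recombined reporter. EGFP, the transcript of the recombined reporter, had a UMI in 86.8% (95% Wilson interval 76.7 to 92.9) and 95% (83.5 to 98.6) of thinned vascular-like cells in KO 1 and KO 2, against 84.9% (75.8 to 90.9) and 90.2% (79.0 to 95.7) in het 1 and het 2. The libraries of both genotypes overlapped, with a difference of 3.34 percentage points (two-sided exact permutation p = 0.667). In cardiomyocyte-like cells, which should lack it, EGFP had a UMI in 12.6% and 9.75% of cells in the KO libraries and 11.7% and 12.1% in the het libraries. Those cells had median depths of 5645 and 8840 UMIs in KO 1 and KO 2, and 5475 and 8965.5 in het 1 and het 2, before thinning to the same 3000. Endocardial-like cells had EGFP in 80.4% and 81.6% in the KO libraries, against 87.2% and 90.9% in the het libraries, so that there the KO libraries were both lower. The red transcript, which the unrecombined reporter makes, was seen in 26.5% and 27.5% of vascular-like cells of KO 1 and KO 2, against 23.3% and 23.5% in het 1 and het 2, and in 37.9% and 42.1% of cardiomyocyte-like cells of the KO libraries, against 39.7% and 48.9% in the het libraries. Unthinned, its levels were 155 and 75.2 CPM in vascular-like cells of the KO libraries, against 117 and 115 in the het libraries.

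**Figure D2:**
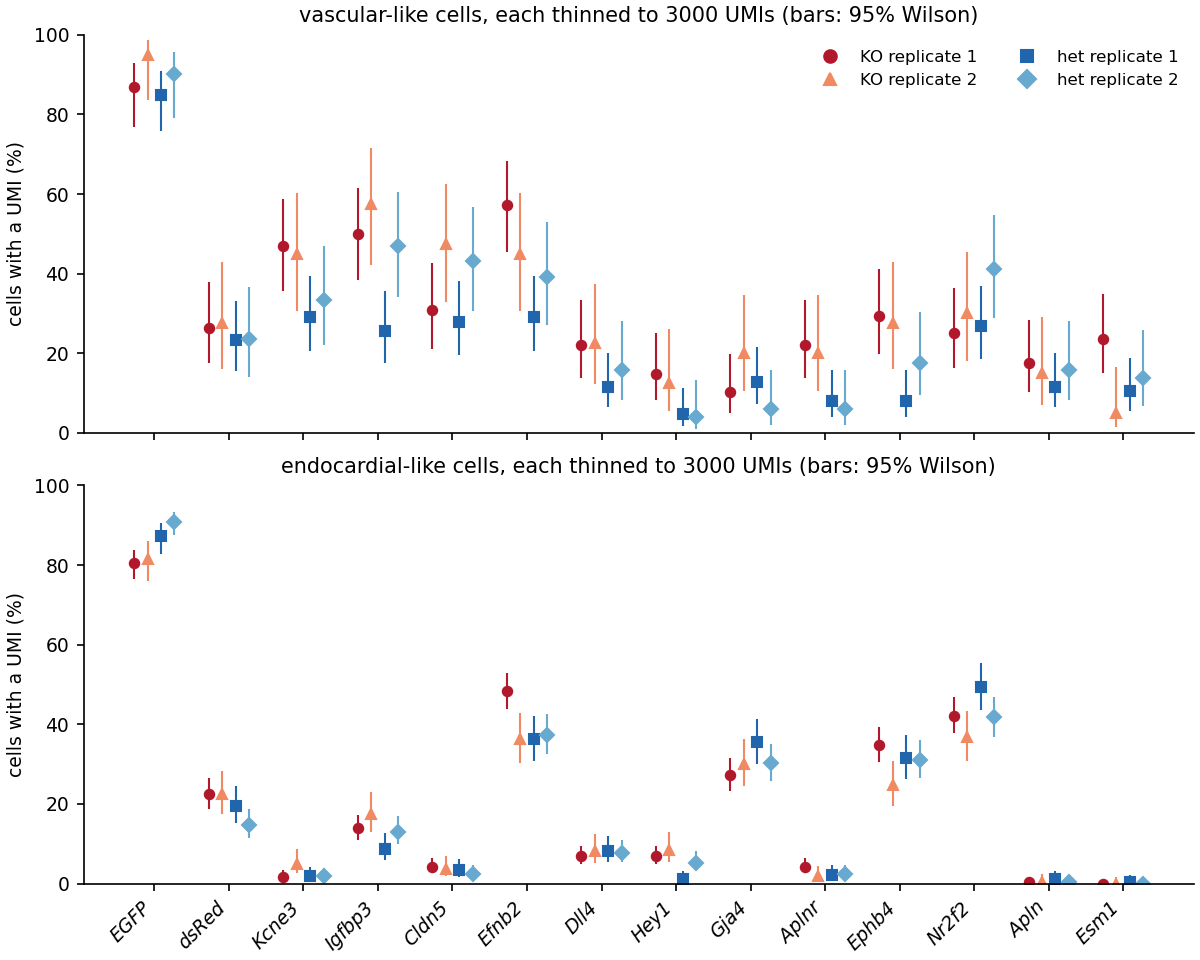
Percent of cells with at least 1 UMI of each gene after every cell was thinned to 3000 UMIs, in vascular-like cells (top) and endocardial-like cells (bottom), one point per library with KO left of het; bars are 95% Wilson intervals. EGFP lies between 80.4% and 95% in both classes, with both KO libraries below both het libraries in endocardial-like cells, while Kcne3, Cldn5, Apln, Aplnr and Esm1 are far more frequent in the vascular-like cells.

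Gata4 itself (ENSMUSG00000021944.15; GRCm38 chromosome 14, 63198922 to 63271692, minus strand, positions from GENCODE M21) was higher in the KO libraries. It stood at 68.9 and 93.1 CPM in KO 1 and KO 2, against 37.6 and 33.1 CPM in het 1 and het 2, from 87, 95, 36 and 35 UMIs. The groups did not overlap, and the log2 difference was 1.19 (SE 0.24), a 2.28-fold higher level. Over all genes it was not called (edgeR quasi-likelihood adjusted p = 0.564), but it was without het 1 (1.28, adjusted p = 0.0295). In endocardial-like cells the log2 difference was 0.87 (SE 0.16), and the difference between both cell groups was 0.32 (adjusted p = 0.769). The assay counts transcript 3′ ends and the floxed exons are not given in the labels, so the Gata4 count does not check the deletion. FloxGata4, a sequence the submitters added to the reference, had 0 UMIs in vascular-like cells of every library, which allows up to 2.48 and 2.85 CPM in KO 1 and KO 2 and 3.09 and 2.84 CPM in het 1 and het 2. The added FloxGata4_ctrl had 5 and 0 UMIs in KO 1 and KO 2 and 0 in both het libraries, and the labels do not say what either sequence holds.

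The comparison of KO with het asked which genes differ in the vascular-like cells between the genotypes as labelled. UMIs were summed per library and 8814 genes tested, and none was called at an adjusted p of 0.05 in edgeR's quasi-likelihood fit, that is 0% of the genes tested (lowest adjusted p = 0.174). At an unadjusted p under 0.05 there were 400 genes, 2.8% of all tested with KO higher and 1.74% with KO lower. DESeq2 called 3 genes, Igfbp3, Cyp26b1 and Gja4, all higher in KO, and limma-voom none. Genes were set apart, with both KO libraries above both het libraries, in 17.2% of all genes tested, and with both below in 15.5%. The median log2 difference over all genes was −0.0004. The edgeR count depended on single libraries: it was 7 without KO 1, 0 without KO 2, 59 without het 1 and 90 without het 2, where the lone library of a group is assumed to vary like the other group. Of the 24 leading genes described next, Klf4, Gja4, Cyp26b1 and Aqp1 were called without KO 1, without het 1 and without het 2, and Ndrg1, Bmp6, Stmn2 and Igf1 without het 1 and without het 2. Gata4, Edn1, Cnrip1, Ednrb and Asb4 were called without het 1 alone, and Dpp4, Hspa1b and Apoe without het 2 alone. Hey1, a member of the arterial list, was called without het 1 (adjusted p = 0.00141 in edgeR), and Vwf was called without het 2 (adjusted p = 0.0438). The named genes below are therefore those of lowest p with no overlap of the libraries, and no gene among them passed the threshold in the fit of all 4 libraries. Members of the lists are given as examples besides, and those set against the lean of their list were chosen after their values were seen.

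Among the 12 leading genes higher in KO, Cyp26b1, an enzyme that degrades retinoic acid, stood at 31.7 and 64.7 CPM in KO 1 and KO 2, against 5.22 and 2.83 CPM in het 1 and het 2 (log2 difference 3.54, SE 0.52). Both het libraries were close to the detection floor and both KO libraries well above it. Over 19 alternative analyses the log2 difference ran from 2.03 to 4.02. The other genes of the retinoic acid list gave little: 7 of its 17 members could be tested 5 of them above 0, and the list's median was 0.11, or 0.36 without KO 1 and 0.38 without KO 2. Rara, a retinoic acid receptor, had a log2 difference of 0.61 (SE 0.29) and Rarg, another, −0.25 (SE 0.36).

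Ndrg1, a gene known for induction by hypoxia and stress, shared the lowest adjusted p-value with Cyp26b1. It stood at 99.0 and 113 CPM in KO 1 and KO 2, against 30.3 and 40.6 in het 1 and het 2 (log2 difference 1.57, SE 0.23, edgeR adjusted p = 0.174). Of the 25 tested genes of hypoxia and glycolysis 15 were above 0, and 7 had libraries set apart with KO higher and 2 with KO lower. Over all genes tested, 49.9% were above 0, 17.2% set apart with KO higher and 15.5% with KO lower. The list's median was 0.09, and it ran from 0.03 without KO 2 to 0.13 without het 1. Egln3, a prolyl hydroxylase induced by hypoxia, stood at 80.0 and 71.5 CPM in KO, against 43.9 and 53.8 in het. Slc2a1, the glucose transporter GLUT1, stood at 68.1 and 96.0, against 49.1 and 60.4 CPM.

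Igfbp3, one of the defining markers, was higher in both KO libraries by about the same amount. Its level was 795 and 822 CPM in KO 1 and KO 2, against 392 and 399 CPM in het 1 and het 2 (log2 difference 1.03, SE 0.19, 2.05-fold higher). Igfbp7, a related secreted protein, stood at 87.1 and 118, against 47.0 and 51.9 CPM. Igf1, the growth factor that Igfbp3 binds, ran the other way at 47.5 and 19.6 CPM in KO 1 and KO 2, against 99.2 and 78.4 CPM in het 1 and het 2 (log2 difference −1.36, SE 0.33). Of the 14 tested genes of the IGF system 9 were above 0, and the median was 0.13, or 0.07 without KO 1 and 0.08 without het 2. The remaining markers moved less. Kcne3 stood at 305 and 265, against 211 and 217 CPM (log2 difference 0.41, SE 0.19), and Cldn5 at 185 and 243, against 212 and 288 CPM with overlapping libraries (−0.23, SE 0.22). Fabp4 and Kdr, which the rule used, had log2 differences of 0.24 and 0.26.

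**Figure D3:**
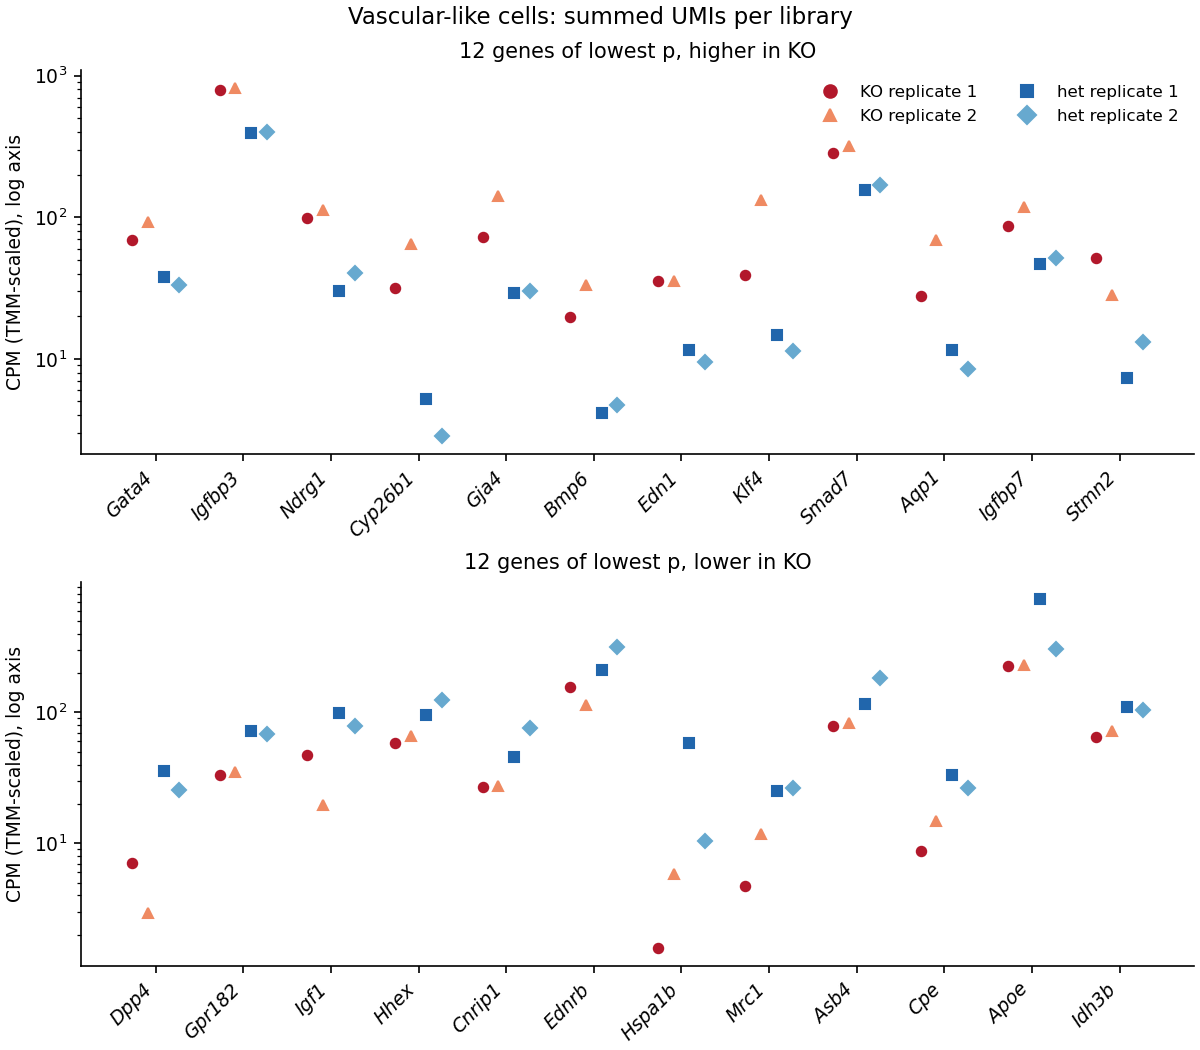
CPM of summed UMIs of vascular-like cells (log axis) for the 12 genes of lowest p in each direction, one point per library, KO left of het. Both KO points lie above both het points for the upper 12 genes and below them for the lower 12, which the naming rule required; the spread within a genotype is widest for Hspa1b, in KO and in het, and wide for Klf4 in KO.

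Arterial genes leaned towards KO. Of the 22 members 21 could be tested, and these 21 were above 0, beside 49.9% of all genes, and 13 had both KO libraries above both het libraries, beside 17.2% of all genes. The median log2 difference was 0.55, and none was called. Gja4 stood at 72.9 and 142 CPM in KO 1 and KO 2, against 29.2 and 30.2 CPM in het 1 and het 2 (log2 difference 1.84, SE 0.32, edgeR adjusted p = 0.476). With only 1 Fabp4 UMI required the log2 difference of Gja4 was 0.92, and with Npr3 at 0 it was 1.46. Gja5, the arterial connexin 40, stood at 15.8 and 18.6, against 6.27 and 2.83 CPM (1.91, SE 0.52), with het 2 close to the detection floor. Hey1, a Notch target and transcriptional repressor, stood at 37.2 and 62.7, against 21.9 and 12.3 CPM (1.54, SE 0.38). The genes at the other end of the list hardly differed: Sox17, a transcription factor of arterial fate, had 75.3 and 95.1 CPM in KO, against 55.3 and 98.2 in het, and Mecom 129 and 147, against 131 and 140 CPM. Without het 1, 17 of 21 were above 0 and the median was 0.87.

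Notch genes overlapped with that list. Of 15 tested, 12 were above 0, beside 49.9% of all genes, and 8 set apart with KO higher, beside 17.2%. Their median was 0.39. The median was 0.10 without het 2, with 12 of 17 above 0, and 0.25 without KO 1, with 10 of 17. The ligand Dll4 stood at 94.3 and 90.2 CPM in KO 1 and KO 2, against 56.4 and 66.1 CPM in het 1 and het 2 (log2 difference 0.59, SE 0.20). The ligand Jag2 stood at 48.3 and 37.2, against 29.2 and 15.1 CPM, and the receptor Notch1 at 194 and 220, against 159 and 125 CPM. Other targets of the pathway did not follow Hey1. Hes1 stood at 65.8 and 75.5 CPM in KO, against 67.9 and 94.4 in het, and Nrarp, a feedback inhibitor, at 76.8 and 71.5, against 73.1 and 87.8 CPM.

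**Figure D4:**
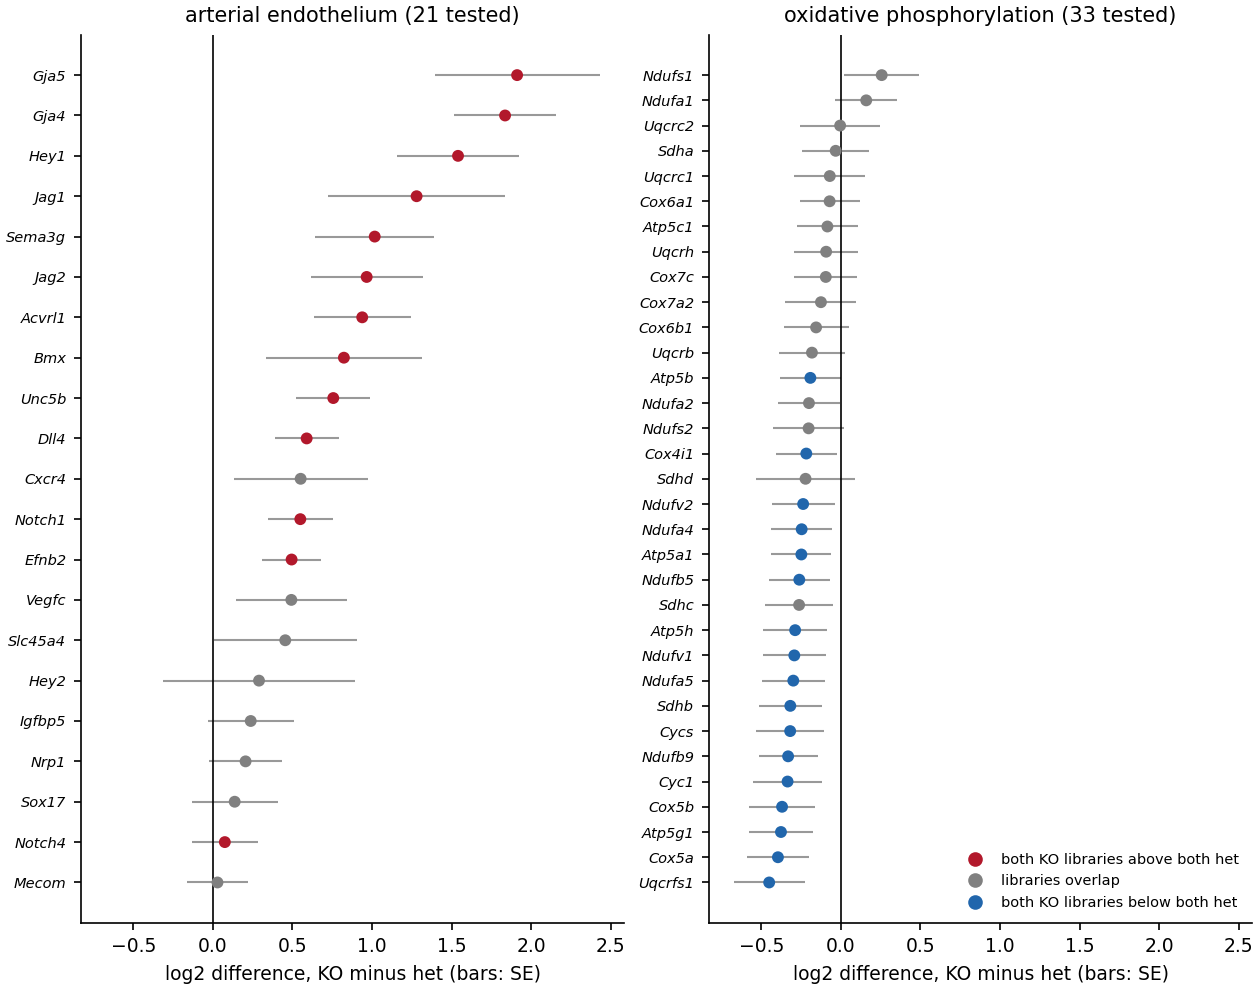
Log2 difference KO minus het with its SE for every tested member of the arterial list (left) and the oxidative phosphorylation list (right) in vascular-like cells; colour shows whether both KO libraries lie above (red) or below (blue) both het libraries. All 21 arterial genes lie right of 0, from 0.03 to 1.91, and 31 of 33 oxidative phosphorylation genes lie left of it.

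Venous and sinus venosus genes were split. Of 11 tested outside the rule, 6 were above 0 and 5 below, and the median was 0.14. Aplnr stood at 65.8 and 56.8 CPM in KO 1 and KO 2, against 39.7 and 41.6 CPM in het 1 and het 2 (log2 difference 0.60, SE 0.23), and it had a UMI in 22.1% and 20.0% of thinned cells, against 8.14% and 5.88%. Ephb4, the venous receptor of ephrin-B2, stood at 87.9 and 89.2, against 67.9 and 46.3 CPM. Nr2f2, in contrast, had overlapping libraries at 169 and 153, against 168 and 193 CPM. Dab2, an endocytic adaptor, stood at 79.2 and 68.6 CPM in KO, against 133 and 99.2 in het (log2 difference −0.64, SE 0.22). The list's median was 0.29 without KO 2 and 0.07 without het 1, and it was −0.03 with 1 Fabp4 UMI required and −0.004 with sarcomere genes under 0.5% of UMIs.

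Sprouting and tip cell genes were mostly higher in KO, with exceptions among the tip cell ligands. Of 21 tested, 17 were above 0, 11 had KO higher and 2 KO lower with libraries set apart, and the median was 0.37. Over all genes tested, 49.9% were above 0, 17.2% set apart with KO higher and 15.5% with KO lower. Unc5b, a netrin receptor of tip and arterial cells, stood at 112 and 153 CPM in KO 1 and KO 2, against 89.8 and 67.1 CPM in het 1 and het 2. Mcam, an adhesion molecule, stood at 228 and 177, against 148 and 118 CPM. Apln ran the other way at 89.5 and 76.4, against 91.9 and 132 CPM (log2 difference −0.43, SE 0.23). Esm1 rested on single libraries, with 151 and 24.5 CPM in KO 1 and KO 2, against 117 and 114 CPM in het 1 and het 2. Without het 1, 16 of 22 were above 0 and the median was 0.44.

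Of 8 tested ligands and receptors of VEGF, the main vessel growth factor, 7 were above 0 and 3 set apart with KO higher. Over all genes these shares were 49.9% and 17.2%. Flt1, a receptor known for trapping VEGF, stood at 769 and 735 CPM in KO 1 and KO 2, against 465 and 481 CPM in het 1 and het 2 (log2 difference 0.67, SE 0.19), with little spread in either genotype. Flt4 stood at 92.7 and 66.6, against 70.0 and 75.6 CPM, and Nrp1 at 443 and 479, against 312 and 487 CPM. Of the ligands, Vegfa stood at 53.9 and 41.2, against 33.4 and 17.0 CPM. Of the angiopoietin receptors, Tie1 stood at 181 and 202, against 145 and 152 CPM, and Tek, the receptor TIE2, at 124 and 120, against 100.2 and 102 CPM.

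Among BMP and TGF-beta genes the inhibitory Smads and a ligand stood out. Of 25 tested, 16 were above 0, beside 49.9% of all genes. With libraries set apart, 13 had KO higher and 2 KO lower, beside 17.2% and 15.5% of all genes. The median was 0.27, or 0.14 without KO 2. Bmp6 stood at 19.8 and 33.3 CPM in KO 1 and KO 2, against 4.18 and 4.72 CPM in het 1 and het 2 (log2 difference 2.53, SE 0.49). Both het levels were close to the detection floor, and with only 1 Fabp4 UMI required the log2 difference was 1.73. Smad7 and Smad6 block signalling downstream of the receptors. Smad7 stood at 284 and 318, against 155 and 168 CPM (0.90, SE 0.19), and Smad6 at 69.7 and 104, against 43.9 and 27.4 CPM (1.28, SE 0.29). Of the receptors, Eng stood at 482 and 530, against 338 and 354 CPM, and Acvrl1 at 38.0 and 55.9, against 23.0 and 25.5 CPM. Id1, a target of BMP signalling, stood at 219 and 296, against 160 and 152 CPM, while Id3 had a log2 difference of 0.09 and Id2 one of −0.74 (SE 0.24).

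Genes known to respond to blood flow included several of the leading ones. Klf4, a flow-induced transcription factor, stood at 38.8 and 132 CPM in KO 1 and KO 2, against 14.6 and 11.3 CPM in het 1 and het 2 (log2 difference 2.69, SE 0.55), the largest gap between the KO libraries among the 12 genes. With only 1 Fabp4 UMI required its log2 difference was 1.51. Edn1, the vasoconstrictor endothelin-1, stood at 35.7 and 35.3, against 11.5 and 9.44 CPM (1.76, SE 0.34), and Ednrb, an endothelin receptor, at 158 and 115, against 211 and 315 CPM (−0.95, SE 0.25). Aqp1, a water channel, stood at 27.7 and 69.6, against 11.5 and 8.50 CPM. Of the 17 tested genes of the list 12 were above 0, with a median of 0.29. Without het 1 the median was 0.56, with 14 of 17 above 0, and without het 2 it was 0.16, with 10 of 17 above 0. Nos3, the endothelial nitric oxide synthase, had overlapping libraries at 91.9 and 92.1, against 103 and 83.1 CPM.

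Endocardial genes were low in the vascular-like cells and leaned towards KO. Of 15 tested outside the rule, 14 were above 0 and 8 set apart with KO higher, with a median of 0.55. Over all genes these shares were 49.9% and 17.2%. The list shares Edn1, Klf4, Klf2 and Notch1 with lists above. Nfatc1, a transcription factor of endocardium, stood at 47.5 and 53.9 CPM in KO 1 and KO 2, against 30.3 and 33.1 CPM in het 1 and het 2, and Vwf at 24.6 and 51.0, against 11.5 and 19.8 CPM. Tmem108, Cgnl1 and Foxc1 had log2 differences of −0.11, 0.05 and 0.18. Npr3 UMIs were carried by 19 of 75 and 15 of 41 vascular-like cells in KO 1 and KO 2, against 41 of 99 and 17 of 54 in het 1 and het 2. With Npr3 required to be 0 the list's median was 0.54, with 11 of 13 above 0. The lean depended on the Fabp4 threshold: 10 of 15 were above 0 with 4 Fabp4 UMIs required (median 0.19), and 10 of 16 with 1 required (0.23). Without het 2, 10 of 17 were above 0 (0.48), while with sarcomere genes under 0.5% of UMIs 15 of 15 were (0.99). Over 19 alternatives the median ran from 0.19 to 0.99.

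Basement membrane genes were higher in KO in most cases, by small amounts. Of 32 tested members of the basement membrane and collagen list 25 were above 0 and 18 set apart with KO higher, with a median of 0.35. Over all genes tested, 49.9% were above 0 and 17.2% set apart with KO higher. Col4a1, a chain of basement membrane collagen IV, stood at 3388 and 2513 CPM in KO 1 and KO 2, against 2073 and 2047 CPM in het 1 and het 2 (log2 difference 0.52, SE 0.22). Sparcl1 stood at 649 and 832, against 383 and 526 CPM, and Lamb1, a laminin chain, at 394 and 388, against 255 and 295 CPM. The exceptions included interstitial collagens known from mesenchyme: Col3a1 stood at 99.8 and 69.6, against 198 and 88.8 CPM, and Col1a2 at 40.4 and 9.80, against 95 and 24.6 CPM. For these the highest library was het 1.

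Fatty acid genes, of which the rule used Fabp4, were close between genotypes. Of 19 tested outside the rule 12 were above 0 and 7 below, and the median was 0.12. It was 0.03 without KO 1, 0.03 without het 1 and 0.22 without het 2. Tcf15, which together with Meox2 is known to drive fatty acid transport genes of heart capillaries, stood at 155 and 173 CPM in KO 1 and KO 2, against 125 and 121 CPM in het 1 and het 2 (log2 difference 0.42, SE 0.19). Meox2 itself stood at 41.2 and 45.1, against 34.5 and 56.7 CPM. Gpihbp1 and Lpl, the lipase anchor and the lipase, had log2 differences of 0.28 (SE 0.22) and 0.13 (SE 0.30). Cd36, a fatty acid transporter, stood at 40.4 and 14.7, against 45.9 and 50.1 CPM. Fabp5 had overlapping libraries at 3079 and 3699, against 2698 and 3770 CPM.

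Oxidative phosphorylation genes, in contrast to the endothelial lists, lay almost all below 0. Of 33 nuclear-encoded subunits 31 were below 0, beside 50.1% of all genes, and 17 had both KO libraries below both het libraries, beside 15.5% of all genes. The median log2 difference was −0.22, and no member had an unadjusted p under 0.05. Cox5a, a subunit of cytochrome oxidase, stood at 359 and 423 CPM in KO 1 and KO 2, against 535 and 494 CPM in het 1 and het 2 (log2 difference −0.40, SE 0.19). Atp5g1, of ATP synthase, stood at 396 and 497, against 580 and 579 CPM. Cardiomyocyte markers were highest in het 1. Without het 1, 28 of 33 lay below 0 and the median was −0.21, while it was −0.14 without KO 1 and −0.36 without KO 2. Replication genes of the G1/S phase were less even, with 15 of 25 below 0 and a median of −0.10, which was 0.004 without het 1, 0.02 without KO 2, −0.28 without KO 1 and −0.23 without het 2.

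Among the 12 leading genes lower in KO, Dpp4, a cell-surface peptidase, stood at 7.13 and 2.94 CPM in KO 1 and KO 2, against 35.5 and 25.5 CPM in het 1 and het 2 (log2 difference −2.52, SE 0.47). Its level in KO 2 was close to the detection floor. Gpr182, an endothelial receptor that scavenges chemokines, stood at 33.3 and 35.3, against 72.0 and 68.0 CPM (−1.03, SE 0.23). Hhex, a homeobox gene of early endothelium, stood at 58.6 and 65.7, against 96.1 and 125 CPM (−0.83, SE 0.21). The further genes were Igf1 and Ednrb, given above, with Cnrip1, Asb4, Cpe, Idh3b, Apoe, Mrc1 and Hspa1b. Some of these are known from other cells or from stress. Apoe, abundant in macrophages, stood at 227 and 230, against 730 and 306 CPM. Mrc1, a mannose receptor of macrophages and some endothelium, stood at 4.75 and 11.8, against 25.1 and 26.4 CPM. Hspa1b, a heat-shock gene with the near-identical copy Hspa1a, stood at 1.58 and 5.88, against 58.5 and 10.4 CPM, and its count is uncertain for that reason. Its level in KO 1 was below the detection floor. Without het 1 the log2 difference of Apoe was −0.42 and that of Hspa1b −1.51, against −1.18 and −3.22 with all libraries.

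Transcripts of other cell types differed between the libraries. Over the 16 cardiomyocyte markers outside the rule, summed CPM was 1321 and 703 in vascular-like cells of KO 1 and KO 2, against 2820 and 767 in those of het 1 and het 2, and no marker of the list was at 0 in all libraries. The 12 mesenchymal markers summed to 358 and 156, against 681 and 245 CPM. The 12 macrophage markers summed to 23.1 and 16.2, against 234 and 37.0 CPM, and the 9 megakaryocyte markers to 892 and 33.3, against 73.0 and 9.48 CPM. The 12 erythroid markers summed to 35273 and 23821, against 45831 and 6019 CPM. Het 1 was highest for cardiomyocyte, mesenchymal, macrophage and erythroid markers and KO 1 for megakaryocyte markers. Of the 12 pericyte and smooth muscle markers Myh11 was at 0 in all libraries, and among the neural crest and neuron markers Sox10, Erbb3 and Foxd3 were. With sarcomere genes held under 0.5% of UMIs the arterial median was 0.56, the oxidative phosphorylation median −0.17 and the mesenchymal median 0.28, the last against −0.75 with all cells. Without cells carrying macrophage or megakaryocyte UMIs the arterial median was 0.77, the oxidative phosphorylation median −0.20, and Dpp4 and Hspa1b had log2 differences of −1.92 and −1.99. edgeR called 0 genes in both settings, with 395 and 404 genes at an unadjusted p under 0.05, and 0 genes without globin genes, with 403. Beyond these values and those without single libraries, the part of other cells' transcripts was not tested. The Y-linked gene Ddx3y had 35 and 0 UMIs in vascular-like cells of KO 1 and KO 2, against 31 and 64 in those of het 1 and het 2, and Xist, made from the inactive X chromosome, 893 and 924, against 664 and 234. Both genes thus had UMIs in KO 1, het 1 and het 2, while in KO 2 Ddx3y was at 0 in endocardial-like and cardiomyocyte-like cells, too. The libraries therefore differed in the sexes they held, and the part of sex in the KO minus het differences was not tested.

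**Figure D5:**
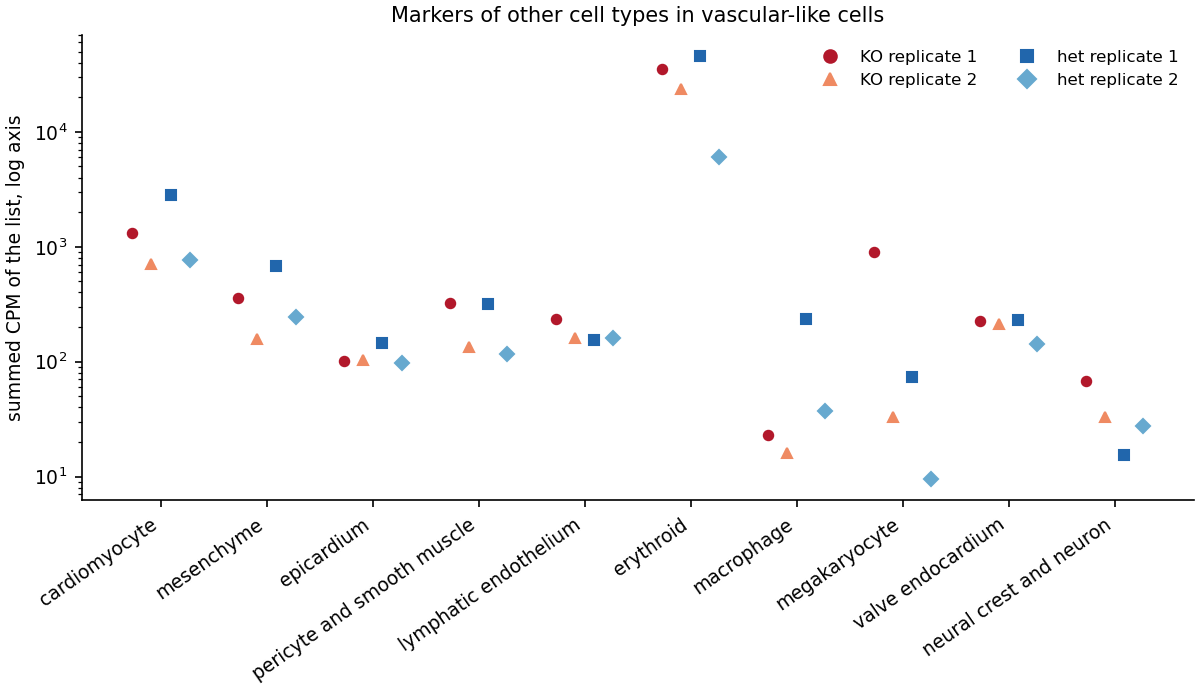
Summed CPM of marker lists of other cell types in vascular-like cells (log axis), one point per library, KO left of het. Het 1 is the highest library for cardiomyocyte, mesenchymal, erythroid and macrophage markers and KO 1 for megakaryocyte markers, while lymphatic and valve markers lie close together.

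The last comparison asked whether KO and het differed in another way in vascular-like than in endocardial-like cells. It was fitted as an interaction term, with each library a block, over 11938 genes, of which 3 were called (0.0251%). Gja4 was the one of these that was not a macrophage gene. In a scaling shared by both cell groups it stood at 76.5 and 152 CPM in vascular-like cells of KO 1 and KO 2, against 30.6 and 32.4 CPM in those of het 1 and het 2. In endocardial-like cells it stood at 136 and 165 CPM in the KO libraries, against 147 and 179 CPM in the het libraries. The KO minus het difference of Gja4 was thus higher in vascular-like than in endocardial-like cells, by 1.92 on the log2 scale (SE 0.26, edgeR adjusted p = 0.0109). It passed in 9 of 11 alternatives, and the 2 exceptions were those without cells carrying macrophage or megakaryocyte UMIs (1.71, adjusted p = 0.0922) and with Npr3 at 0 (1.42, adjusted p = 0.761). The interaction was not refitted with only 1 Fabp4 UMI required. The vascular-like counts of Gja4 were 92, 145, 28 and 32 UMIs in KO 1, KO 2, het 1 and het 2. The share of thinned cells with a Gja4 UMI overlapped between genotypes, with 10.3% and 20.0% in KO and 12.8% and 5.88% in het.

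The other called genes were F13a1 and Ccl3, both known from macrophages, which are named because the call count is small and were chosen after their values were seen. F13a1 had 8 and 0 UMIs in vascular-like cells of KO 1 and KO 2, against 27 and 4 in those of het 1 and het 2. Ccl3 had 36 UMIs in het 1 and 0 in the other 3 libraries. Both were highest in het 1, where the macrophage markers also had their highest sum. For F13a1 the other libraries did not keep that order, since KO 1 had more of its UMIs than het 2 but a lower macrophage sum (23.1 against 37.0 CPM). The part of macrophage transcripts in these calls was not tested. Of the named genes that missed the threshold, Klf4 had an interaction of 2.89 (SE 0.55, adjusted p = 0.112), with endocardial-like levels of 65.4 and 57.2 CPM in KO, against 83.1 and 66.9 in het. Adamts9, a secreted metalloproteinase of endothelium, had one of 1.05 (SE 0.20, adjusted p = 0.112) and Gpr182 one of −1.0 (SE 0.21, adjusted p = 0.153). For most other leading genes both cell groups differed in the same direction. The interaction was 0.23 for Igfbp3, 0.80 for Bmp6 and 0.07 for Hey1, each from a positive difference in both groups (adjusted p = 0.786, 0.708 and 0.989).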

How the data were processed

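The values deposited were unnormalized UMI counts, made by the authors with Cell Ranger 6.0.1, per the file headers; mm10, Cell Ranger and Seurat are named in the submitters' processing notes. Cells were chosen by the count rule of the report. The members, the gene lists and the naming rule were chosen with earlier results of these data known. Vascular-like UMIs were summed per library, and 8814 genes that passed filterByExpr (minimum count 10, minimum total 15) were tested with edgeR 4.0.16 (TMM, quasi-likelihood, Benjamini-Hochberg adjustment over all genes, threshold 0.05) in R 4.3.3. DESeq2 1.42.0, limma 3.58.1, no filter, other selection limits and leaving out each library were alternatives. CPM are scaled by TMM. Shares were computed after thinning each cell to 3000 UMIs. Genes named were the 12 of lowest p in each direction with a mean of at least 20 CPM in the higher genotype and no overlap of libraries, up to 4 members of lowest p of each list, up to 6 interaction genes per direction, and the 12 and 6 genes of extreme ratio to endocardial-like cells; further list members were chosen after their values were seen. Some genes that the rule names are not reported here. Doublets were called with Scrublet in scanpy 1.11.5, using the threshold found in het 2 for all libraries. Library totals were 171252072 and 137890971 UMIs in KO 1 and KO 2, and 156491597 and 190207638 in het 1 and het 2. The fits were also run on simulated counts with known changes, whose outcome is not given here. These counts had the same dispersion for every gene and no library set apart as het 1 was, so they do not show how the fits behave on these libraries. The labels conflict on the version of the 10x kit.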

Additional observations from a re-analysis of the deposited data

Results flagged for a closer look

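The KO minus het difference differed between vascular-like and endocardial-like cells for 3 genes by the interaction test (edgeR quasi-likelihood, adjusted over 11938 genes). It was 1.92 on the log2 scale for Gja4, with 2 of 2 KO libraries above both het libraries in vascular-like cells. It was −5.1 for F13a1 and −14.6 for Ccl3, genes known from macrophages with UMIs mainly in het 1 among vascular-like cells and in KO 1 among endocardial-like cells. These fitted values depend on the prior count and are no bounds, since several libraries had no UMI of the gene. With 2 libraries a genotype no library could be tested as an outlier within its group.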

How the results depend on the processing

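Few cells and 2 libraries a genotype limit every comparison. The count of genes differing between KO and het was 0, against 3 in DESeq2, 96 with no filter on low counts, 56 with the replicate number as a block and 0 to 90 on leaving out 1 library. Same-numbered libraries deviated together (r = 0.31 over 8814 genes, 2 pairs), but the labels do not say that a number marks a shared litter or day, so the block is given only here. The count of interaction genes was 3, against 92 with no filter, 1 in DESeq2, 19 with 4 Fabp4 UMIs, 8 without called doublets, 5 with sarcomere genes under 0.5%, 1 without macrophage or megakaryocyte UMIs, 0 with Npr3 at 0 and 46 to 139 on leaving out 1 library. At Npr3 at 0 edgeR gave 745 genes with an unadjusted p under 0.05. The KO minus het difference in the share of vascular-like cells was −0.272 percentage points, against 0.0249 as a share of gated barcodes, 0.0865 with 4 Fabp4 UMIs, 0.0629 with sarcomere genes under 0.5% and −0.922 to 0.377 on leaving out 1 library. It was −0.308 with barcodes thinned before the rule. For the share with EGFP it was 3.34, against −3.80 unthinned and −0.775 to 7.46 on leaving out 1 library; for Nr2f2 it was −6.46, against 6.59 unthinned and −13.7 to 0.756 on leaving out 1 library; for Esm1 it was 2.17, against −7.10 to 11.4 on leaving out 1 library. Cldn5 had a log2 difference of −0.44 to 0.000406 on leaving out 1 library and 0.12 with Npr3 at 0, and Cytl1 an interaction of 0.43 with Npr3 at 0. Of 528 values for the 28 named genes 526 kept their direction. Most of these genes were named because their libraries did not overlap, so leaving out 1 library could hardly reverse them. Leaving out called doublets or shared barcodes removed no vascular-like cell. The count is therefore no measure of how firm the differences are. The cause of these differences was not tested.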

Other observations

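Further lists gave no call in vascular-like cells. Semaphorin, plexin and netrin genes, which guide vessel sprouts, had 12 of 18 tested members above 0 and 8 set apart with KO higher. Over all genes tested, 49.9% were above 0 and 17.2% set apart with KO higher. The list's median log2 difference was 0.28, or 0.05 without KO 1 and 0.44 without KO 2. Sema6d, a transmembrane semaphorin, stood at 309 and 242 CPM in KO 1 and KO 2, against 203 and 196 CPM in het 1 and het 2, while Sema3a stood at 22.2 and 14.7, against 25.1 and 29.3 CPM. Haemostasis genes had 13 of 15 above 0 and a median of 0.56. Without KO 1, in which megakaryocyte markers summed to 892 CPM, 11 of 15 were above 0 and the median was 0.33, and without cells carrying macrophage or megakaryocyte UMIs it was 0.43. Procr, the protein C receptor, ran against the list at 16.6 and 15.7 CPM in KO 1 and KO 2, against 25.1 and 30.2 CPM in het 1 and het 2. Wnt pathway genes had 12 of 13 above 0 and a median of 0.30, or 0.09 without KO 1, 0.18 without KO 2 and 0.45 without het 2. Junction genes had 12 of 18 above 0 and a median of 0.09.

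Of 32 tested transcription factors of the GATA, SoxF, Ets and related families 23 were above 0, with a median of 0.11, or 0.17 without het 2. Gata6, a relative of Gata4, had overlapping libraries at 67.3 and 95.1 CPM in KO 1 and KO 2, against 67.9 and 77.4 CPM in het 1 and het 2. Of 8 tested genes around Gata4 on chromosome 14, itself included, 5 were above 0. Neil2, a DNA repair enzyme, stood at 16.6 and 23.5, against 3.13 and 9.44 CPM, and Sox7, a SoxF factor, at 119.6 and 143, against 89.8 and 76.5 CPM.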
